A study of Mus musculus with 2 samples.

Results

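The genes described here are 36 genes of glycolysis and of the response to low oxygen, followed across the cell types of LLC tumours grown in wild-type mice (WT) and in Dusp2-/- mice (KO). They were taken by symbol from the 33696 genes in the deposited count tables, with earlier results of these data known. Each of the 36 was read from both libraries. They are 2 glucose transporters, 16 glycolytic enzymes, 2 enzymes that set fructose-2,6-bisphosphate, 4 genes of lactate and pyruvate fate, Hif1a with 2 of its hydroxylases, and 9 genes of the hypoxia response. LLC is a mouse Lewis lung carcinoma line, and Dusp2 encodes a nuclear phosphatase of MAP kinases that activated lymphocytes switch on early. Each genotype is 1 library of 10x Chromium 3' RNA, so no difference between genotypes could be tested, and genotype cannot be told apart from animal, tumour, dissection or library. Both samples carry the label of lymphocytes from tumour, with total RNA named as the molecule for WT and polyA RNA for KO. The number of animals behind a library, any sort of the cells and the extent of the Dusp2 deletion were not stated in the sources used here.

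Glycolysis splits glucose into pyruvate in the cytosol. Glucose enters through Slc2a1 and Slc2a3 (GLUT1 and GLUT3), hexokinases trap it, phosphofructokinase commits it, and Ldha turns pyruvate into lactate, which leaves with protons through Slc16a1 and Slc16a3 (MCT1 and MCT4). When oxygen is low the hydroxylases Egln1 and Egln3 no longer mark the factor HIF-1alpha, the product of Hif1a, for destruction, and HIF-1 then binds DNA at the core letters ACGTG or GCGTG and raises many of these same genes. Activated lymphocytes, growing tumour cells and inflammatory macrophages are all known for high glycolysis, and Hif1a is controlled largely at the level of its protein, which RNA counts do not show.

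The WT library held 9890 cell barcodes and 113873249 unique molecular identifiers (UMIs, each a tagged RNA molecule), and the KO library 12744 barcodes and 101532711 UMIs; 31 barcodes occurred in both. The filter on cells, at least 200 genes and no more than 20% mitochondrial UMIs, left 9765 in WT and 12636 in KO, which were placed in classes by raw UMIs of marker genes, none of them among the 36. Against the label, non-lymphocytes were common: 1547 WT and 1489 KO cells were tumour cells by Rhox5 RNA, and 2655 and 963 were C1q macrophages. The class sizes were unequal, and B cells numbered 10 in WT and 2516 in KO, so B cells have a level in KO only. The other 10 classes with at least 50 cells in both libraries were compared. Dusp2 itself, the check of the genotype labels, was at 55.4 to 780 CPM (UMIs of a gene per 1000000 UMIs) in the WT immune classes compared and at 0 to 3.65 CPM in the KO ones, while the tumour cells, which are not of the host's genotype, had 74.8 and 74.0 CPM. Immunoglobulin RNA made up 0.0040% of the WT and 2.52% of the KO UMIs and was found in all KO classes.

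Promoters of members are shown first, because they carry the sequence letters that define the HIF response. RefSeq windows on GRCm38.p6, from 250 bases before to 50 bases after each start, were held for 33 of the 36 members, 48 windows in all; Bnip3l, Ndrg1 and Slc2a3 had none. Capitals mark ACGTG and GCGTG on either strand, so CACGT and CACGC are the same letters read on the other strand, and CACGTG holds ACGTG on both. The 5 printed are those of the enzymes Ldha and Pgk1, of the lactate exporter Slc16a3 and of Hilpda, the members with differing values in the classes below, and of the vessel growth factor Vegfa, the one of the 5 with no match.
Ldha, chr7:46845554-46845853, plus strand: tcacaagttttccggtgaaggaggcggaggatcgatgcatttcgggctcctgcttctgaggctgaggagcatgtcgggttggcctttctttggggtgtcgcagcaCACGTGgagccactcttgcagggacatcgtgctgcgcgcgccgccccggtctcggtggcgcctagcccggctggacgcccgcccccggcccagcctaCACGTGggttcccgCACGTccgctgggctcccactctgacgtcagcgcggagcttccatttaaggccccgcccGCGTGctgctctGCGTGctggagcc
Pgk1, chrX:106186850-106187149, plus strand: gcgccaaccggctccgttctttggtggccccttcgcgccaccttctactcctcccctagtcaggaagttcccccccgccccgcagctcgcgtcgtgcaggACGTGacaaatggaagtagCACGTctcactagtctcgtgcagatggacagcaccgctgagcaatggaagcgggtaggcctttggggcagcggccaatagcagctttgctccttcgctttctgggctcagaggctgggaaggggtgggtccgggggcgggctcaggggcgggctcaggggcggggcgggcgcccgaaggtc
Slc16a3, chr11:120948817-120949116, plus strand: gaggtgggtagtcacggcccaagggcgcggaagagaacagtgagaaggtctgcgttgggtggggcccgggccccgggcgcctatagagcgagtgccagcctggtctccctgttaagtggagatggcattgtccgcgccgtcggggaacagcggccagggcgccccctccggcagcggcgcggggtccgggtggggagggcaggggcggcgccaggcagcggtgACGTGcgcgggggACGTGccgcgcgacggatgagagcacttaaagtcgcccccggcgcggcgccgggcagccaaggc
Hilpda, chr6:29272376-29272675, plus strand: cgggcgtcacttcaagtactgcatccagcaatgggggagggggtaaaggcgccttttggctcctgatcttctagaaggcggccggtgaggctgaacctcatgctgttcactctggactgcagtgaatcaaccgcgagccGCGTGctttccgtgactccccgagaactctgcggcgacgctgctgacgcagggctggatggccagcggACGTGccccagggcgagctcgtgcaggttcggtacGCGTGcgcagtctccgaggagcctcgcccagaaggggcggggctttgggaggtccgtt
Vegfa, chr17:46032328-46032627, minus strand: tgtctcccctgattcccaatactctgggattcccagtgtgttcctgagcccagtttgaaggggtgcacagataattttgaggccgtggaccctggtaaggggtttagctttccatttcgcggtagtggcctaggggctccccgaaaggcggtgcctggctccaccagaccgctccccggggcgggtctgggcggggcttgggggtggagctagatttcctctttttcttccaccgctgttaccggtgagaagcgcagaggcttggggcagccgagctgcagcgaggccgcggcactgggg
ACGTG occurred in 56.25% of the members' windows and in 19.6% of the 32851 windows of all genes, and ACGTG or GCGTG in 81.25% against 43.8%. The members' windows were also richer in G and C, with a median of 62.2% against 52.7%, and the part of base composition in the match counts was not tested. A match is a stretch of letters, not a binding site, and the Vegfa window says only that the letters are not in it; the window at another Vegfa start held 1 of each.

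Levels of the 36 genes differed between the tumour's cell types before any genotype was compared. Levels are in CPM of the UMIs summed over a class, and are compared between classes for 1 gene at a time, since a 3' UMI count does not rank genes against each other. Arg1 myeloid cells, which carry RNA of the arginine-degrading enzyme Arg1 and little C1q, had the highest level among the classes for 13 members in WT and 16 in KO. Fibroblasts were highest for 7 members in each library, and tumour cells for 3 in WT and 4 in KO. These counts take all 36 members, those with few UMIs included, and make no allowance for counting error. The KO Arg1 myeloid class holds 60 cells. How often each class is highest over all genes was not computed, so the counts are no result about the members as a group.

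Gapdh, the enzyme of the first oxidising step, reached 3804 CPM in WT and 4618 CPM in KO Arg1 myeloid cells. In fibroblasts it was 874 and 681 CPM, the lowest level of Gapdh among the classes compared. Fibroblasts thus stood at the opposite end for this enzyme from several other members, of which they had the most RNA. Their Hk2, the inducible hexokinase, was at 827 and 887 CPM, ahead of tumour cells at 265 and 249.1 CPM, and their Ndrg1, a stress and hypoxia gene, at 820 and 826 CPM. P4ha2, which hydroxylates prolines of collagen, was at 81.4 and 103 CPM there, and Adm, the peptide adrenomedullin, at 50.9 and 54.2 CPM, each with WT and KO intervals that overlapped. Not all hypoxia genes were high in fibroblasts. Ankrd37 was found in 0 of 92 WT and 0 of 107 KO cells, and Egln3 in 7.6% and 1.9%. The fibroblast sums rest on 92 and 107 cells. KO fibroblasts also held 1808 CPM of the 4 globin genes against 4.52 CPM in WT, and its part in their values was not tested.

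**Figure D1:**
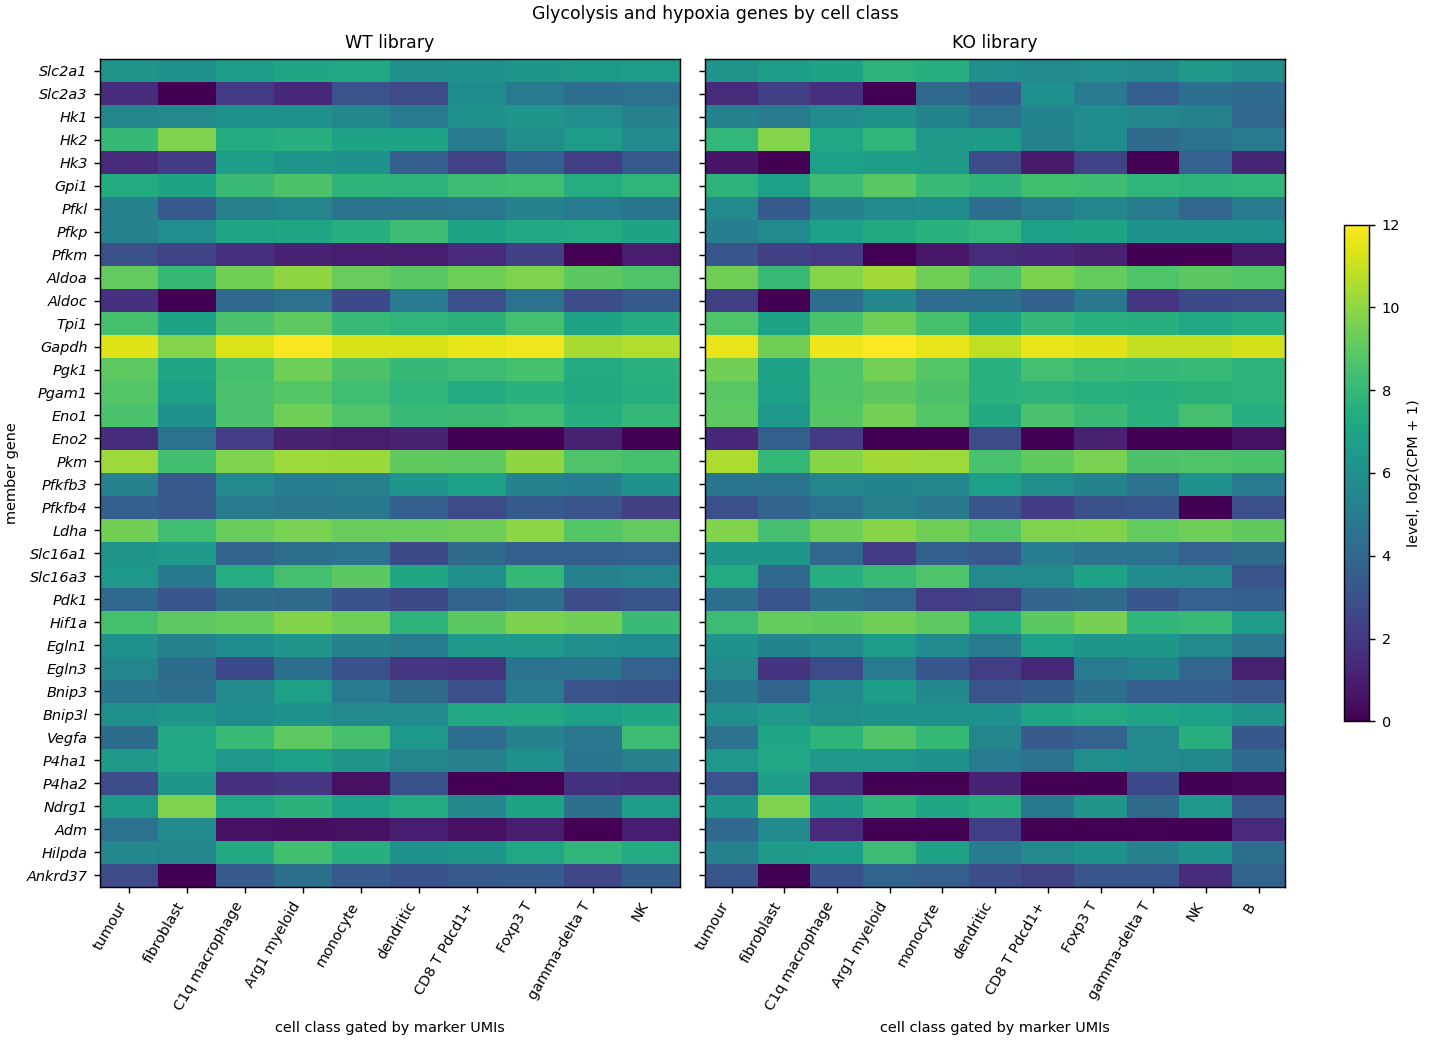
Levels of the 36 genes, as log2(CPM + 1) on the colour scale, in the 10 classes with at least 50 WT cells (left) and the 11 with at least 50 KO cells (right); genes are rows, ordered by role, and classes are columns. Hk2 and Ndrg1 are brightest in fibroblasts, Hk3 in C1q macrophages at 106 and 107 CPM, and Pfkp in dendritic cells at 313 and 245 CPM.

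Tumour cells had the most Pkm, pyruvate kinase, at 1207 and 1464 CPM, and the most Egln3. For Pkm, WT Arg1 myeloid cells at 1194 CPM (1152 to 1238) did not differ from WT tumour cells beyond counting error. Hif1a RNA was highest in WT Arg1 myeloid cells, at 852 CPM, and in KO Foxp3 T cells, at 737 CPM, and lowest in WT dendritic cells, at 216 CPM, and in KO B cells, at 99.2 CPM. Vegfa was highest in Arg1 myeloid cells, at 517 and 432 CPM. Slc16a3 was highest in monocytes, at 498 and 410 CPM, followed by Arg1 myeloid cells at 348 and 267 CPM. For Hk3 the 2 highest classes, C1q macrophages and Arg1 myeloid cells, were at 106 and 73.9 CPM in WT and at 107 and 103 CPM in KO, where they did not differ beyond counting error. Pfkm, Eno2, Pdk1 and Ankrd37 did not reach the level filter in any class compared. The filter asked for a mean of at least 20 CPM and at least 50 UMIs over both libraries. Pfkm and Eno2 are the muscle and neuronal isozymes.

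Isozyme use differed between classes, and is given as each gene's share of the UMIs of its family, with 95% Clopper-Pearson intervals for counting error where the libraries are set side by side. Among hexokinases Hk2 took 85.1% in WT and 86.8% in KO tumour cells, and 94.1% and 96.8% in fibroblasts. Hk3, the isozyme of myeloid cells, took 31.4% and 35.5% in C1q macrophages and 29.0% (26.3 to 31.8) and 41.2% (35.7 to 47.0) in monocytes. Dendritic cells drew their phosphofructokinase almost wholly from Pfkp, the platelet type, with 92.8% and 92.2%. In tumour cells Pfkp had 46.4% and 35.9%, and Pfkl, the liver type, 45.5% (43.9 to 47.1) and 55.5% (53.8 to 57.2). Monocytes differed the same way, with Pfkl at 10.8% (8.90 to 12.9) in WT and 21.5% (17.4 to 26.1) in KO.

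Of the glucose transporters Slc2a3 took 2.4% and 2.3% of the pair in tumour cells and 46.1% and 55.6% in CD8 T cells with RNA of the inhibitory receptor Pdcd1. The exporter Slc16a3 took 53.8% (52.6 to 55.0) and 66.6% (65.6 to 67.6) of the lactate transporter UMIs in tumour cells, and 96.0% (94.1 to 97.5) and 84.5% (77.5 to 90.0) in dendritic cells, so KO had the larger share in the one and the smaller in the other.

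**Figure D2:**
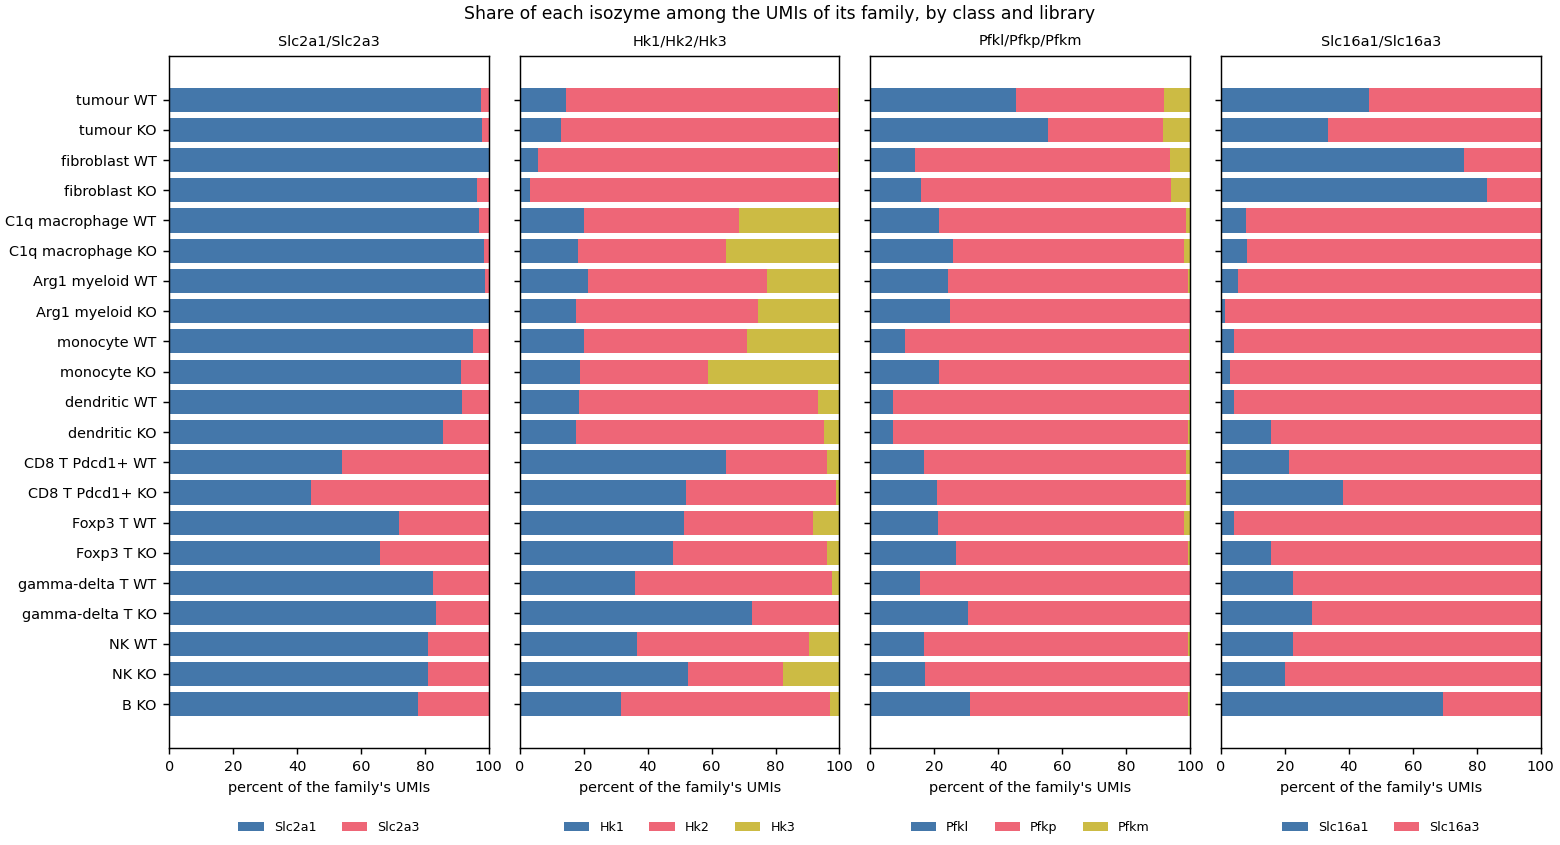
Shares of UMIs within 4 isozyme families (percent, from 0 to 100) in each cell class, with a WT and a KO bar per class. The families are glucose transporters, hexokinases, phosphofructokinases and lactate transporters. Pfkp fills 92.8% and 92.2% of the dendritic bars and Hk2 fills 94.1% and 96.8% of the fibroblast bars.

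Between the genotypes the enzymes and the hypoxia-response genes did not keep one direction across the tumour. A difference is given as the log2 ratio of KO to WT levels, with a 95% interval after it that covers counting error only, and a member is counted as higher or lower from 1.5-fold on. The median log2 ratio of the enzymes was above 0 in Arg1 myeloid cells (0.28), tumour cells (0.25), monocytes (0.21), Pdcd1-positive CD8 T cells (0.21), NK cells (0.16), C1q macrophages (0.099) and gamma-delta T cells (0.087). It was below 0 in dendritic cells (-0.42), Foxp3 T cells (-0.31), the regulatory T cells, and fibroblasts (-0.12). The hypoxia-response genes, of which 2 to 7 of 9 were measured in a class, had their lowest median in gamma-delta T cells, -1.22 over 2 genes. Their medians were -0.70 in Pdcd1-positive CD8, -0.64 in Foxp3 T, -0.52 in dendritic and -0.31 in NK cells. In C1q macrophages, Arg1 myeloid cells and tumour cells they were -0.19, -0.12 and -0.048, and in fibroblasts and monocytes 0.090 and 0.049. The medians of the enzymes and of the hypoxia-response genes had opposite signs in all classes but dendritic cells, Foxp3 T cells and monocytes. Several of these signs are weak. In fibroblasts the genes' intervals had median half-widths of 0.41 and 0.48, wider than either median. The hypoxia-response median in tumour cells lay near the -0.018 of all measured genes. In gamma-delta T cells the median of all members was -0.34 with the top cell of each gene left out. These medians describe 2 libraries and carry no test.

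**Figure D3:**
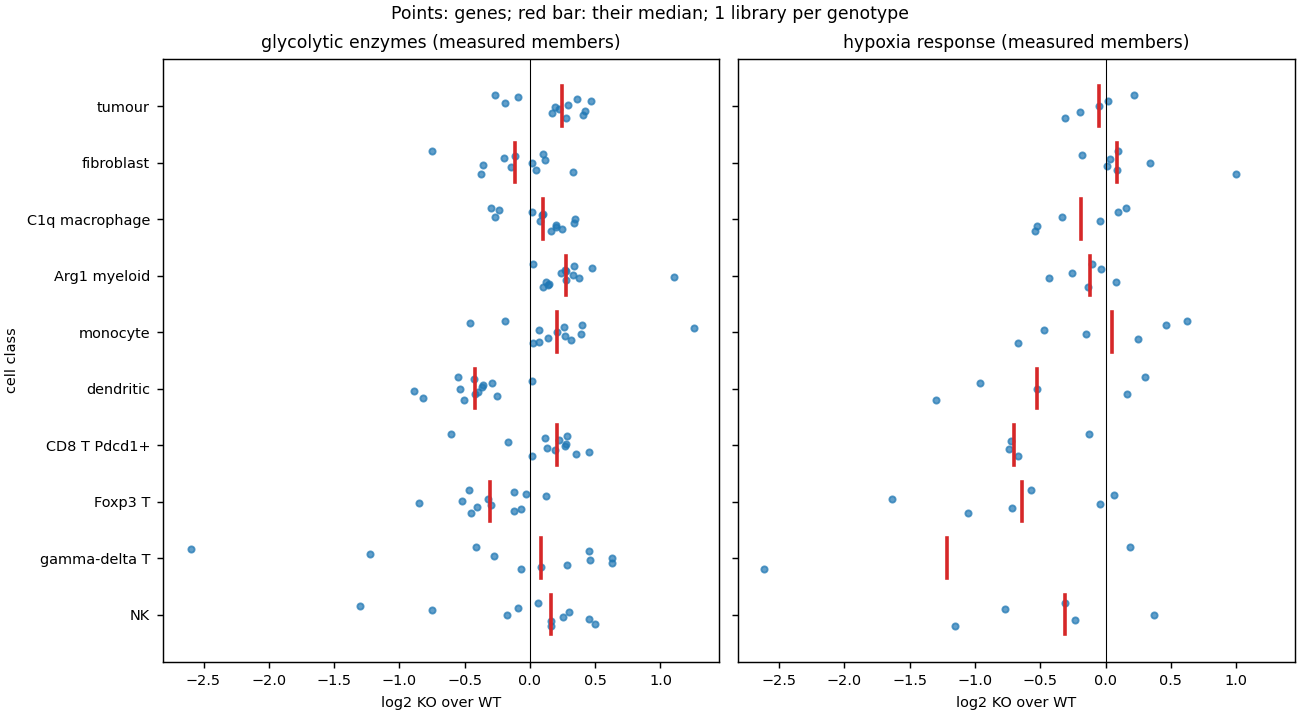
Log2 ratio of KO to WT levels of each measured glycolytic enzyme and each measured hypoxia-response gene, by cell class; points are genes, the red bar is their median and 0 is no difference. The enzyme points lie mostly above 0 in tumour cells (median 0.25) and mostly below 0 in dendritic cells (median -0.42).

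In tumour cells most enzymes were slightly higher in KO and the lactate exporter Slc16a3 stood out. Slc16a3 had 84.5 CPM in WT and 158 CPM in KO, a log2 ratio of 0.90 (0.84 to 0.97). Pfkfb3, the kinase-type enzyme that raises the activator of phosphofructokinase, was lower, at 38.8 and 24.5 CPM, a log2 ratio of -0.66 (-0.79 to -0.54). With tumour cells gated by Y-linked genes in place of Rhox5 the ratios were 1.03 and -0.81, both moved by more than the counting error. Slc16a3 and Pfkfb3 were the 1 higher and the 1 lower of 25 measured members, where 1.46% of all 5810 measured genes were at least 1.5-fold higher and 3.48% lower. The median of the members was 0.17 and that of all measured genes -0.018.

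Of 12 measured enzymes in tumour cells 9 had ratios above 0 and 3 below. Pgk1, which makes ATP in the payoff phase, had 513 CPM in WT and 689 CPM in KO, and Eno1, enolase, 388 and 515 CPM, log2 ratios of 0.43 and 0.41. Pfkl was at 38.4 and 52.9 CPM, while Hk1, Hk2 and Pfkp had ratios of -0.27, -0.09 and -0.19. The hexokinases and Pfkp thus did not share the sign of Pfkl and of the enzymes that follow. Hif1a was at 363 and 297 CPM, a log2 ratio of -0.29 (-0.33 to -0.25), and Hilpda, which coats lipid droplets and slows their breakdown, at 46.1 and 37.3 CPM.

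Cycling differed between the libraries too. Cells with at least 2 UMIs of 5 cycling genes were 63.2% of WT and 73.7% of KO tumour cells, and median depth was 28331 and 19027 UMIs. Among WT tumour cells 8 of 26 measured members were at least 1.5-fold higher and 4 lower in cycling cells than in cells with no UMI of those genes, against 12.3% and 12.5% of all measured genes. Slc16a3 (98.9 against 47.5 CPM) and Eno1 (441 against 245 CPM) were on the cycling side in WT, and Hk2 (223 against 361 CPM), Ndrg1 (78.4 against 130 CPM) and Hif1a (311 against 490 CPM) on the other. In KO tumour cells 1 member was higher and 2 lower, against 11.5% and 10.9%.

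Slc16a3 was also compared between the libraries in tumour cells with no cycling UMI. There it was at 47.5 CPM in 324 WT cells and 109 CPM in 228 KO cells, a log2 ratio of 1.19, and the members' median was 0.27. In cycling tumour cells the ratio of Slc16a3 was 0.76. Whether a cell shows a cycling UMI depends on its depth, and the part of cycling and depth in the ratios was not tested. A Slc16a3 UMI was found in 13.9% (12.2 to 15.7) of WT and 25.6% (23.4 to 27.9) of KO tumour cells at an equal depth of 2000 UMIs, and in 63.3% and 76.6% with all UMIs.

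C1q macrophages and monocytes had higher levels of most enzymes and a lower level of Hilpda in KO. In C1q macrophages Gapdh was at 2653 CPM in WT and 3348 CPM in KO, a log2 ratio of 0.34 (0.32 to 0.35), and Slc2a1 at 94.1 and 126 CPM. Hilpda was at 153 and 106 CPM there, a log2 ratio of -0.54 (-0.64 to -0.44), Ndrg1 at 147 and 102 CPM, and Vegfa at 279 and 221 CPM. None of the 26 measured members reached 1.5-fold, where 0.747% of 5894 measured genes were higher and 2.1% lower. The members' median was 0.062 and that of all genes -0.051.

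Arg1 myeloid cells had all 14 of their measured enzymes at ratios above 0, with Aldoa at 1034 and 1300 CPM and Tpi1 at 513 and 664 CPM. The intervals of 7 of these enzymes lay above 0. The median of all measured members was 0.25 and that of all measured genes -0.057. With the top cell of each gene left out these medians were 0.053 and -0.18. Slc2a1 was at 132 CPM in WT and 215 CPM in KO, a log2 ratio of 0.71 (0.40 to 1.004), and Aldoc, the brain-type aldolase, at 21.9 and 47.1 CPM, a ratio of 1.11 (0.40 to 1.79). These 2 of 28 measured members were higher and 0 lower, against 6.58% and 12.7% of all genes. Hif1a was on the other side at 852 and 664 CPM. The KO sums rest on 60 cells.

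Monocytes, gated by Ly6c2, had Pfkl at 23.2 CPM in WT and 55.3 CPM in KO, a log2 ratio of 1.25 (0.81 to 1.69). Hilpda was lower, at 191 and 120 CPM, a ratio of -0.67 (-0.92 to -0.43). Bnip3, a mitophagy receptor, was at 30.7 and 47.5 CPM, a ratio of 0.63 that was 0.12 when cells were thinned to equal depth. Of 26 measured members 2 were higher and 1 lower, against 4.47% and 8.04% of all genes. KO monocytes held 3393 CPM of the neutrophil markers, 5 of 5 detected, against 2.67 CPM in WT with Retnlg at 0, and 6466 CPM of the antibody gene Igkc. Without the 4 KO cells that had at least 20 UMIs of S100a8 and S100a9, Pfkl had a ratio of 1.29.

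Within C1q macrophages the members followed Arg1, a marker that is not one of them. Cells with at least 5 Arg1 UMIs were set against cells with none, a split chosen after values had been seen. In WT 10 of 27 measured members were at least 1.5-fold higher in the Arg1 cells and 0 lower, where 1.62% of all genes were higher and 1.57% lower. In KO 13 of 26 were higher and 0 lower, against 2.0% and 3.03%. Bnip3 was at 31.0 CPM without and 85.3 CPM with Arg1 in WT, and at 37.1 and 93.8 CPM in KO, with Pgk1 at ratios of 0.79 and 0.78.

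Dendritic cells had 12 of 13 measured enzymes at ratios below 0, where the other myeloid classes had most of theirs above 0. Tpi1, triosephosphate isomerase, was at 233 CPM in WT and 126 CPM in KO, a log2 ratio of -0.89 (-1.08 to -0.70), and Eno1 at 275 and 155 CPM, a ratio of -0.82 (-0.99 to -0.65). Slc16a3 was at 133 and 49.9 CPM, a ratio of -1.41 (-1.71 to -1.12), so the lactate exporter differed in one direction in tumour cells and in the other in dendritic cells. Hilpda was at 71.5 and 29.1 CPM, and Vegfa at 83.4 and 42.8 CPM. These 5 of 24 measured members were at least 1.5-fold lower and 0 higher, against 6.99% and 4.02% of 5550 measured genes. The median of the members was -0.40 and that of all genes -0.043. Gpi1, at 217 and 220 CPM, and Pfkfb3, at 76.2 and 109 CPM, did not share the sign. With marker thresholds doubled 8 members were lower and 1 higher. The macrophage markers, 5 of 5 detected in both libraries, summed to 154 CPM in WT and 56.1 CPM in KO dendritic cells, and their part in the ratios was not tested.

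The mix of dendritic cells differed too. Cells above a UMI threshold for Fscn1 and Ccl22, marks of mature migratory dendritic cells, and below one for Xcr1 and Clec9a, were 37.5% of WT and 51.5% of KO dendritic cells. Within them the members' median was -0.55, with 11 of 22 measured members at least 1.5-fold lower and 1 higher, against 11.8% and 8.46% of all genes. In the dendritic cells that met neither or both of these thresholds, 187 in WT and 78 in KO, the median was -0.19. In those above the Xcr1 and Clec9a threshold only, 36 in WT and 37 in KO, it was -0.32 over 15 measured members. This split was also chosen after values had been seen, and the enzyme medians were -0.61, -0.19 and -0.33 in the same order.

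**Figure D4:**
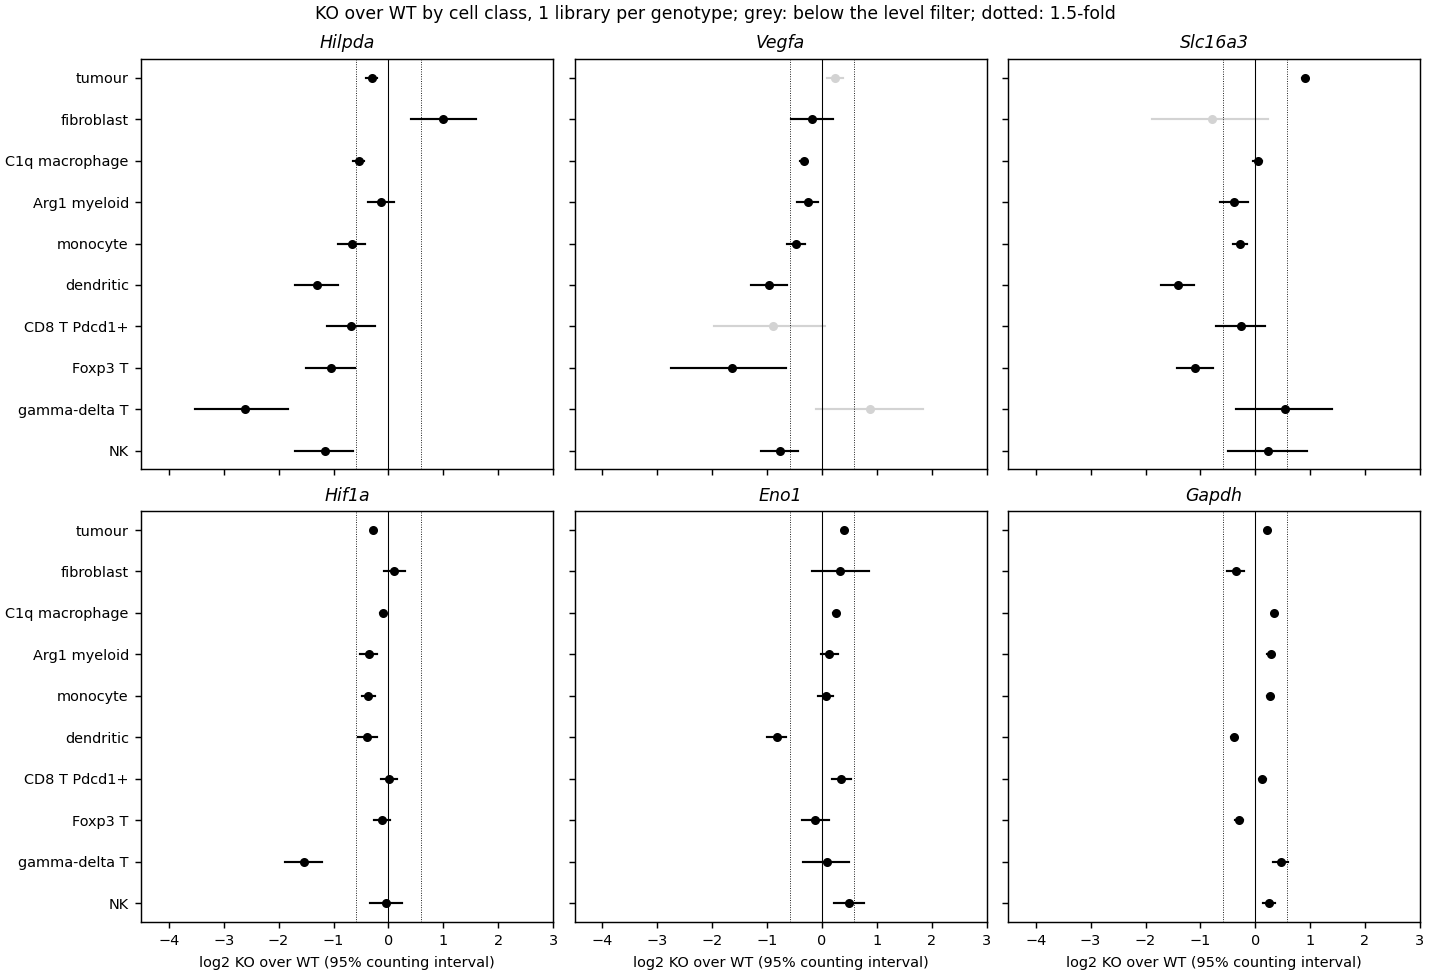
Log2 ratio of KO to WT levels of Hilpda, Vegfa, Slc16a3, Hif1a, Eno1 and Gapdh in each cell class, with the 95% counting interval as a bar; grey points are below the level filter and dotted lines mark 1.5-fold. Slc16a3 lies at 0.90 in tumour cells and at -1.41 in dendritic cells, and Hilpda is lowest in gamma-delta T cells at -2.62.

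Regulatory T cells, gated by Foxp3, had less RNA of most members in KO. Slc16a3 was at 261 CPM in WT and 122 CPM in KO, a log2 ratio of -1.09 (-1.43 to -0.77), Hilpda at 141 and 68.0 CPM, a ratio of -1.05 (-1.51 to -0.61), and Tpi1 at 356 and 197 CPM, a ratio of -0.85 (-1.12 to -0.59). Aldoa was at 824 and 575 CPM and Gapdh at 3442 and 2804 CPM. With Vegfa and Ndrg1, 5 of 26 measured members were at least 1.5-fold lower and 0 higher, against 12.6% and 5.76% of all genes. Vegfa rests on 41 and 11 UMIs, and its ratio of -1.64 was -0.16 after removal of the highest doublet scores; that of Ndrg1, -0.72, was -0.24 among cells without cycling UMIs. The median was -0.25 against -0.083 for all genes. Cycling cells were 30.3% of WT and 23.9% of KO Foxp3 T cells. Markers of other types were lower in the KO class as well. The macrophage markers, 5 of 5 detected in both, summed to 163 and 40.8 CPM, those of monocytes to 598 and 331 CPM, with Chil3 at 0 in KO, and those of NK cells to 487 and 190 CPM, with Eomes at 0 in KO. Their part in the ratios was not tested.

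CD8 T cells with Pdcd1 RNA, which antigen signals induce, had 10 of 12 measured enzymes at ratios above 0 and all 4 measured hypoxia-response genes below 0. Aldoa was at 653 CPM in WT and 790 CPM in KO, Ldha at 663 and 826 CPM, and Pgam1 at 158 and 216 CPM. Pfkfb3 was at 111 and 60.6 CPM, a log2 ratio of -0.88 (-1.27 to -0.50), and Ndrg1 at 46.6 and 27.8 CPM, a ratio of -0.74 (-1.34 to -0.17). Hk1 and P4ha1, the main prolyl hydroxylase of collagen, had ratios of -0.61 and -0.73, and Hilpda was at 79.6 and 49.9 CPM. Slc16a1, which carries lactate either way, was higher, at 16.5 and 31.9 CPM, a ratio of 0.95 (0.27 to 1.63). Of 24 measured members 5 were lower and 1 higher, against 15.2% and 4.77% of all genes. The lower count was 3 with the median ratio of all genes set to 1, with marker thresholds doubled or without cycling cells, and 1 in thinned cells. The ratio of Hilpda was -0.025 in cells thinned to equal depth. Igkc was at 1.74 CPM in the WT and 16313 CPM in the KO class, and cycling cells were 22.9% and 32.3%.

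Gamma-delta T cells had the largest ratios among the measured members. Hilpda was at 236 CPM in 145 WT cells and 38.4 CPM in 58 KO cells, a log2 ratio of -2.62 (-3.52 to -1.84). Hk2 was at 99.7 and 16.4 CPM, a ratio of -2.60 (-4.09 to -1.42). Hif1a was at 686 and 236 CPM, a ratio of -1.54 (-1.89 to -1.21), and its ratio ran from -2.39 to -1.24 over the alternatives. Among 10 classes, Hif1a was at least 1.5-fold lower in this one alone. The members did not share one sign here: Pgk1, Gapdh and Ldha had ratios of 0.63, 0.46 and 0.30. A link between Hif1a RNA and the other members was not tested.

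Pfkp (160 and 68.5 CPM) and Slc2a1 (92.4 and 54.8 CPM) were also lower in gamma-delta T cells, and Pgk1 and Tpi1 were counted as higher. The 5 lower and 2 higher of 18 measured members stood beside 22.3% and 8.32% of all genes. With either other scaling 5 were higher and 5 lower. The higher count was 0 after Scrublet removal, in thinned cells, without cycling cells, without cells holding Rhox5 RNA and with the top cell of each gene left out. A single KO cell held 42.9% of the Tpi1, 35.9% of the Pgk1 and 32.9% of the Gapdh UMIs of its class. With the top cell of each gene left out, the Tpi1 ratio of 0.63 was -0.090. At an equal depth of 2000 UMIs, 29.4% of the class in WT (22.1 to 37.6) and 5.2% in KO (1.1 to 14.4) had a Hilpda UMI, against 50.3% and 12.1% with all UMIs. Over the KO classes this share ran from 3.8% (3.1 to 4.7) in B cells to 29.3% (18.1 to 42.7) in Arg1 myeloid cells. The T-cell markers summed to 1087 CPM in WT and 1837 CPM in KO gamma-delta T cells, and the dendritic markers to 289 and 493 CPM. Those of macrophages summed to 130 and 65.8 CPM, with Ms4a7 and Fcgr1 at 0 in KO. Ribosomal protein RNA made up 17.7% and 24.5% of the UMIs. The part of these differences in the ratios was not tested.

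NK cells had Hilpda at 158 CPM in WT and 71.1 CPM in KO, a log2 ratio of -1.15 (-1.70 to -0.64), and Vegfa at 308 and 181 CPM, a ratio of -0.77 (-1.11 to -0.44). Hk2 was at 54.1 and 21.9 CPM and Pfkp at 120 and 71.1 CPM. Eno1 had the other sign, at 250 and 354 CPM. These 4 of 22 measured members were lower and 0 higher, against 13.9% and 6.18% of all genes. The Hk2 ratio of -1.30 was -0.024 in thinned cells, and that of Vegfa was -0.28 with marker thresholds doubled. WT NK cells held 1035 CPM of the fibroblast markers, 5 of 5 detected, against 31.0 CPM in KO with Fbln1 at 0, and the part of this in the ratios was not tested; 1 WT cell held 33% of their Ndrg1 UMIs. Vegfa RNA was seen in 48.3% (39.9 to 56.7) of WT and 23.9% (14.3 to 35.9) of KO NK cells at that same equal depth, and in 74.7% and 63.9% with all UMIs.

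Fibroblasts had Hilpda at 44.1 CPM in WT and 88.2 CPM in KO, a log2 ratio of 0.999 (0.41 to 1.60), the one class in which it was at least 1.5-fold higher. Slc2a1 was at 63.3 and 102 CPM, and Hk1 at 48.6 and 29.0 CPM with an interval that reached 0. That is 2 higher and 1 lower of 23 measured members, against 7.68% and 10.2% of all genes. A single KO cell held 25.7% of the Hilpda UMIs, and without the top cell of each library the ratio was 0.77. The macrophage markers, 5 of 5 detected in both libraries, summed to 344 CPM in WT and 1171 CPM in KO fibroblasts, and their part in the ratios was not tested.

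B cells, measured in KO only, had members that followed the cell cycle. In 708 cycling B cells Gapdh was at 3777 CPM, against 1098 CPM in 1478 B cells with no cycling UMI, a log2 ratio of 1.78 (1.75 to 1.82). Tpi1 was at 291 and 68.2 CPM, a ratio of 2.09, Pgk1 at 324 and 117 CPM, and Pkm at 574 and 211 CPM. Slc2a1, at 46.7 and 75.6 CPM, and Bnip3l, a mitophagy receptor, at 51.4 and 95.2 CPM, were lower. Of 17 measured members 8 were higher and 2 lower in the cycling cells, against 21.1% and 21.2% of all genes.

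Read gene by gene, Hilpda was measured in 10 classes, at least 1.5-fold lower in 6 and higher in 1. Vegfa was measured in 7 classes, with ratios from -1.64 to -0.18 and 3 of them at least 1.5-fold lower. Slc16a3 was lower in 2 of 9 classes and higher in 1, Pfkfb3 lower in 2 of 8 and Pfkp lower in 2 of 10. Hk2 was lower in 2 of 10 and Ndrg1 in 2 of 9. Gapdh, Aldoa, Pkm, Gpi1, Pgam1, Ldha, Egln1 and Bnip3l were measured in 10 classes and stayed within 1.5-fold in each. In the Foxp3 T, CD8 T, gamma-delta T and NK classes the share of members counted as lower lay near that of all genes. So did the share counted as higher in Arg1 myeloid cells and fibroblasts. Those counts are no result about the members as a group. All classes share their 2 libraries, so agreement between classes is no replication.

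The 57 further genes of the pathway give the surroundings. Of 28 further glycolysis genes 14 were measured in tumour cells, none of them 1.5-fold apart, with a median of 0.031, and in C1q macrophages 14, also none, with a median of -0.033. Of 29 further hypoxia genes 17 were measured in tumour cells, with Angptl4, a lipase inhibitor, alone lower, at 34.7 CPM in WT and 19.5 CPM in KO. In Foxp3 T cells 5 of 17 further hypoxia genes were lower and 2 higher, where 12.6% and 5.76% of all genes were. In Pdcd1-positive CD8 T cells 5 of 18 were lower and 1 higher, where 15.2% and 4.77% of all genes were.

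Mxi1, a repressor of MYC targets, was measured in 10 classes and at least 1.5-fold lower in 6. In Pdcd1-positive CD8 T cells it was at 317 CPM in WT and 136 CPM in KO, a log2 ratio of -1.22 (-1.48 to -0.98), and in monocytes at 444 and 245 CPM. Plin2, which coats lipid droplets as Hilpda does, was lower in 5 of 10 classes, for example at 83.2 and 36.3 CPM in Foxp3 T cells. In dendritic cells Ddit4, an mTOR inhibitor, was at 40.7 and 14.5 CPM, while Eno3, the muscle enolase, was higher, at 36.8 and 92.3 CPM.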

How the data were processed

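The authors deposited raw UMI counts, 1 matrix of genes by cell barcodes per library, after calling cells. The submitters' processing notes list mm10, Seurat 4.0.4, Seurat 4.0.3 and Cell Ranger 6.0.1. The matrices, per the file headers, came from Cell Ranger 8.0.1. Neither the annotation release nor the handling of reads that match several genes is stated in the sources used here, so members with close copies elsewhere in the genome, such as Gapdh, are uncertain to that extent. The symbol Aldoa stands on 2 rows, which were summed.

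Kept cells had at least 200 genes and at most 20% mitochondrial UMIs. Cells were placed in 12 classes by raw UMIs of marker genes, with thresholds of 3 for Cd3 genes, Ncr1 with Klrb1c, and Rhox5, 5 for B-cell genes and 10 for C1q genes. Cells past 2 of the T, B, NK and C1q thresholds, 67 in WT and 180 in KO, were left out. This step removes doublets among these 4 types only. Limits on Rhox5 and Ptprc RNA in the gates keep out part of the doublets with tumour cells and fibroblasts. Doublets with neutrophils, monocytes or dendritic cells can stay in. The classes took 63.7% of WT and 47.3% of KO kept cells. Further T-cell classes are not reported here. Of 5 check markers per type, all 5 were detected in their own class, except Cdh2 at 0 in WT tumour cells. None of them was used in the gates but S100a9, which is in the neutrophil gate, so its detection there was set by the gate. Detection asks for any UMI in the class, so in large classes it says little about identity. KO tumour cells also held all 5 of the T, of the B and of the NK markers. In tumour cells the fibroblast markers summed to 1267 CPM in WT and 928 CPM in KO, above the tumour markers at 890 and 775 CPM.

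UMIs were summed per class and scaled to CPM (Python 3.11.15, numpy 2.4.6, scipy 1.17.1, pandas 2.3.3). Intervals are 95%, exact Poisson for levels, Clopper-Pearson for shares and exact conditional for ratios, and cover counting error only. A gene was measured in a class at a mean of at least 20 CPM and at least 50 UMIs over both libraries. No test was made, since each group is 1 library. The ratio was checked on simulated counts. Named with values were up to 6 members per class and direction past 1.5-fold, by the interval bound nearest 0, the classes with the highest and lowest level of a member, isozyme families, and up to 3 further genes per class and direction; other members give the values of their group. The members and lists were chosen with earlier results of these data known. There were 13 alternatives, among them doublet removal by Scrublet (scanpy 1.11.5) at 0.8% per 1000 cells, 763 WT and 1277 KO cells.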

Additional observations from a re-analysis of the deposited data

How the results depend on the processing

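The 37 named member and class pairs were recomputed under the alternatives, which gave 407 values; 378 moved by less than the counting error of the reported ratio, 24 by more, and 5 changed sign. Those that changed sign were Tpi1 in gamma-delta T cells, 0.63 as reported and -0.27 after Scrublet removal, -0.42 in thinned cells, -0.53 without cycling cells and -0.090 without the top cell, and Pgk1 there, -0.45 without cycling cells. The members' median in gamma-delta T cells, 0.14, was -0.34 after Scrublet removal, -0.35 in thinned cells, -0.51 without cycling cells and -0.34 without the top cell of each gene. The tumour median, 0.17, was 0.27 without cycling cells. Over all classes 10 pairs were at least 1.5-fold higher and 27 lower; with no filter on low genes these were 33 and 52, by its construction, and in thinned cells 17 were lower. Apart from those set by construction, the cause was not tested. Setting the median ratio of all genes to 1 moves every ratio by 0.13 in gamma-delta T cells, and by less than 0.1 elsewhere. The alternatives that left out cells with at least 1% immunoglobulin UMIs, and monocytes with S100a8 and S100a9, were chosen after seeing the data. No paired analysis was possible because each group is 1 library. Genes below the level filter rest on few UMIs and were not counted.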
